A study of Mus musculus with 2 samples.

Results

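The connexin and pannexin genes described here were *Gja1*, *Gja4*, *Gja5*, *Gjb2*, *Gjc1* and *Panx1*, 6 of the 32287 genes of a single-cell RNA sequencing series of the normal mouse aorta. They were taken by symbol from the deposited gene list. The series held thoracic aortas of 2 mice of the C57BL/6J strain, 12 weeks old, each sequenced as its own library with a 3ʹ kit that counts unique molecular identifiers (UMIs, 1 per captured transcript). Both animals carried *Myh11*-CreERT2, a tamoxifen-inducible recombinase driven by a smooth muscle promoter, and the mT/mG fluorescent reporter (designated GFPiSMC or WT), and both had received tamoxifen (1 mg/d by injection, on 5 days) when 3 weeks old, as given in the labels. The study's methods describe tamoxifen at later ages, and which schedule these animals had was not settled here. Viable single cells were sorted after cold enzymatic digestion with no selection for the reporter, so that all cell types of the wall and its surroundings were present. There was no second genotype or treatment, and the comparisons were therefore between cell types of the same 2 aortas, with n = 2 throughout.

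Connexins are membrane proteins that assemble into channels, and channels of adjoining cells dock to form gap junctions that pass ions and small metabolites. In arteries, gap junctions couple endothelial cells to each other, smooth muscle cells (SMCs) to each other and, through holes in the internal elastic lamina, the endothelium to the media. *Gja5* (connexin 40) and *Gja4* (connexin 37) are known as the endothelial connexins of arteries, *Gja1* (connexin 43) and *Gjc1* (connexin 45) are more broadly used, *Gjb2* (connexin 26) is best known in epithelia and the inner ear, and *Panx1* encodes pannexin 1, which forms channels in the membrane of single cells that release ATP.

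The 6 genes lie on 6 chromosomes. In the GENCODE annotation of the mouse GRCm38 assembly (mm10), *Gja5* spans chr3:96904693-97077416, *Gja4* chr4:127311421-127314039, *Panx1* chr9:15002128-15045478, *Gja1* chr10:56377330-56402513, *Gjc1* chr11:102799579-102819700 and *Gjb2* chr14:57098600-57104702. *Gja5* and *Gja1* are on the plus strand and the other 4 on the minus strand. *Gja5* alone shares exonic bases with a gene on the opposite strand, *Gpr89*. Whether strand was used in counting is not given in the sources used here. *Gpr89* was detected at 13.5 to 40.6 CPM (UMIs per 1000000 UMIs of a cell type) in every named type except the erythroid cells, where it had no UMI. *Gja5* was at 0.623 CPM in aorta 1 and 0.647 CPM in aorta 2 in SMCs, where *Gpr89* was at 19.8 and 18.5 CPM. Whether transcripts of 1 of these genes were counted for the other was not tested.

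The sequences just before the start sites of *Gja4* and *Gja5*, whose transcripts were both found mainly in endothelial cells, and of *Gja1*, which had another distribution, are given from RefSeq (GRCm38.p6), 250 bases each, 5′ to 3′ on the strand of the gene. RefSeq promoter entries were at hand for 5 of the 6 members. The *Gja4* stretch is chr4:127314040-127314289, that of *Gja5* chr3:97032152-97032401 and that of *Gja1* chr10:56377050-56377299. The RefSeq start of *Gja5* lies inside the longer GENCODE span. Capitals mark matches to 6 short motifs searched on both strands.
Gja4: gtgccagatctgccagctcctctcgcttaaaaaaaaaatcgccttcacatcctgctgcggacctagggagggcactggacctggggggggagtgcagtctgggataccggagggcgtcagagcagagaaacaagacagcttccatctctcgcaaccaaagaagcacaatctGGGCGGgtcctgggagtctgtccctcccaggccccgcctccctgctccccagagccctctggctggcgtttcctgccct
Gja5: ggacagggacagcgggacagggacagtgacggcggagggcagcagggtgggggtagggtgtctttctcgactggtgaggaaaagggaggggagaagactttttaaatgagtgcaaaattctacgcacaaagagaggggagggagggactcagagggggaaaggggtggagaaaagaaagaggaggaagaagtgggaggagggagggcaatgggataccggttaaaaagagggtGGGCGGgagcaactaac
Gja1: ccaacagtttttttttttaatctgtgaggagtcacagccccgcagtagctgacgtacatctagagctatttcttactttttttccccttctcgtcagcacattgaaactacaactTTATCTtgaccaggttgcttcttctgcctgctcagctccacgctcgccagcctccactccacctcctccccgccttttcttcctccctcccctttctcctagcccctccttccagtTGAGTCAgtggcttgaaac

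The motifs were the GC box GGGCGG, the TATA box TATAAA, the SOX motif AACAAT, the RBPJ core TGGGAA, the GATA motif AGATAA and the AP-1 motif TGAGTCA, and no 2 of them overlapped in these stretches. *Gja4* held 1 GC box, starting 79 bases before its start site (position -79), and *Gja5* held 1 at position -17. A GC box was present in 32.7% of 32851 promoters of the same length. *Gja1* held no GC box. It held a reversed GATA motif at position -135 and an AP-1 motif at position -19, and these occurred in 9.99% and 4.46% of promoters. None of the 3 stretches held the TATA box, the SOX motif or the RBPJ core, which were in 12.4%, 9.42% and 21.6% of promoters. A match of letters is a description of the sequence only.

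After filters on genes, UMIs and mitochondrial reads and removal of called doublets, 6543 cells of aorta 1 and 4609 cells of aorta 2 were analysed, with a median of 5671 and 5392 UMIs per cell. The study's labels state 6278 and 4300 cells after its own filtering, out of the same 8947 and 6263 deposited. Clusters were named from marker lists (SMC-like, endothelial-like and so on, written as cell types hereafter), and neither the members nor the other gap junction genes entered the clustering. There were 4086 SMCs, 2552 fibroblasts, 1532 myeloid cells, 1512 endothelial cells, 926 lymphocytes, 428 mesothelial cells and 36 erythroid cells, and all markers of the SMC, fibroblast, endothelial and mesothelial lists were detected in the type they name. The 8 SMC markers summed to 45608 and 44026 CPM in SMCs and to at most 1490 CPM in any other of these types except the erythroid cells, and the 8 endothelial markers summed to 8195 and 8746 CPM in endothelial cells and to 41.5 to 556 CPM elsewhere, again with the erythroid cells left out. The fibroblast list was less separate, with 37276 and 38165 CPM in fibroblasts and 6486 and 8391 CPM in mesothelial cells. SMCs included 2 shallow clusters of 793 and 154 cells. The libraries shared 10 cell barcodes among analysed cells.

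*Gja5* transcripts were found almost wholly and *Gja4* transcripts mainly in endothelial cells, *Gja1* was highest in mesothelial cells and next in SMCs, *Gjc1* was highest in SMCs and next in endothelial cells, and *Panx1* was highest in lymphocytes and lowest in SMCs, apart from the erythroid cells, which held no UMI of it. *Gjb2* was practically absent. In all analysed cells there were 4632 UMIs of *Gja1*, 3453 of *Gjc1*, 1686 of *Gja4*, 1489 of *Gja5*, 391 of *Panx1* and 3 of *Gjb2*. The 5 genes other than *Gjb2* passed the filter on low counts, and all 5 differed among the 7 cell types in the edgeR quasi-likelihood F test, with Benjamini-Hochberg adjusted p of at most 1.05e-10. So did 92.9% of the 13871 genes tested, and the count of 5 of 5 is therefore no feature of the members.

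**Figure D1:**
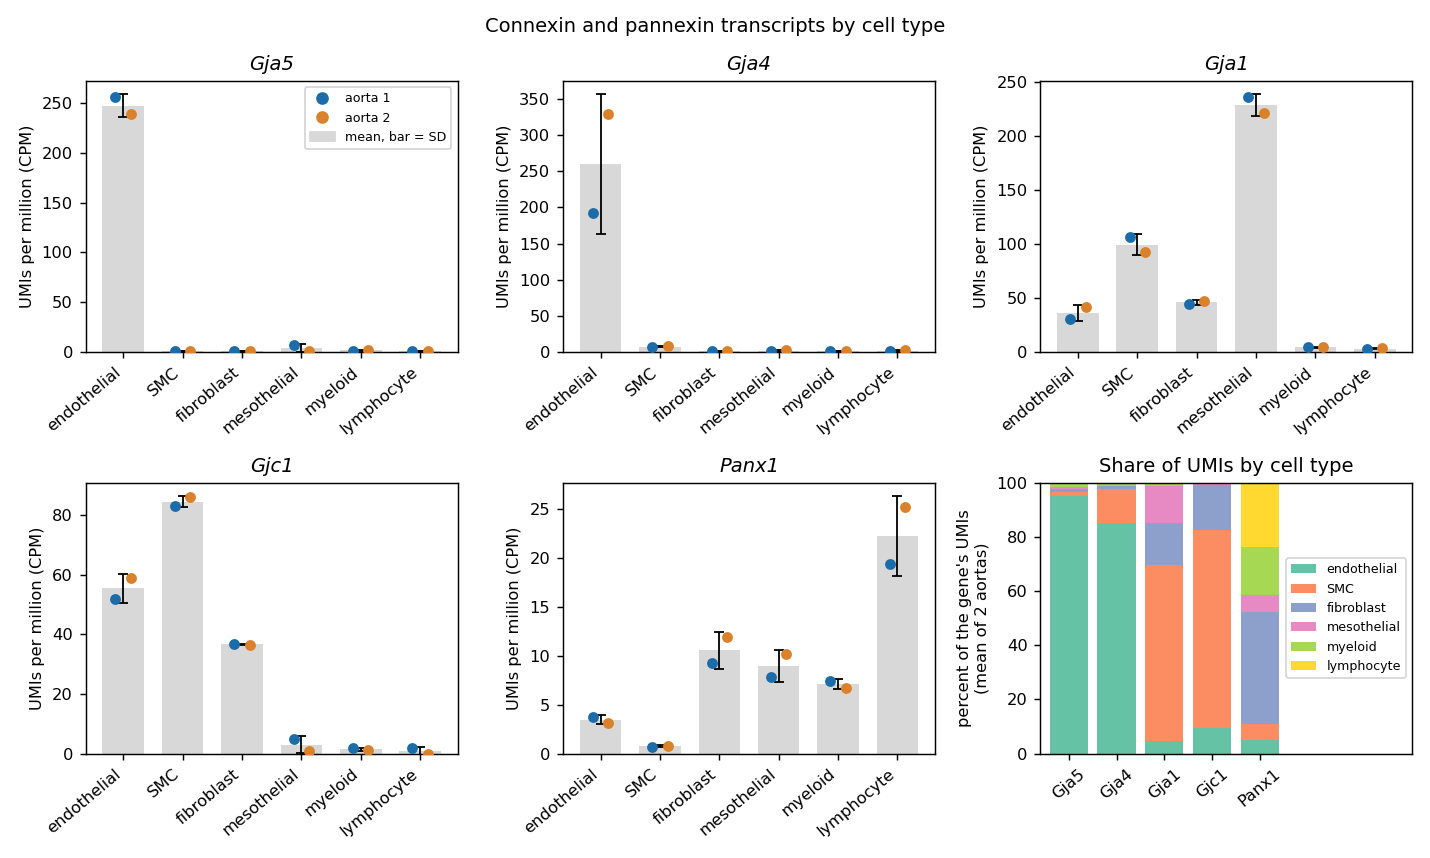
Levels of 5 members in 6 cell types, in UMIs per 1000000 of the summed UMIs of each type (points: 2 aortas; bars: mean with SD), and, in the last panel, the percent of each gene's UMIs found in each type (mean of both aortas). The endothelial bars of *Gja5* and *Gja4* stand at 247 and 260.5 CPM, and the tallest *Gja1* bar, in mesothelial cells, at 228 CPM.

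*Gja5* was at 256 CPM in endothelial cells of aorta 1 and at 239 CPM in those of aorta 2 (247 ± 11.8, SD, n = 2). Endothelial cells held 94.5% and 96.0% of its UMIs. In fibroblasts it was at 1.07 and 1.27 CPM, in myeloid cells at 1.29 and 1.61 CPM, in lymphocytes at 1.09 and 0.645 CPM and in SMCs at 0.623 and 0.647 CPM. The endothelial values lay far above all others in both aortas, whereas fibroblasts overlapped with lymphocytes and lymphocytes with SMCs. The edgeR log2 fold change of SMCs against endothelial cells was -8.34 (SE 0.20, adjusted p = 1.03e-19). Against fibroblasts the endothelial log2 fold change was 7.55 (SE 0.21, adjusted p = 1.36e-18), and with doublets kept 5.95. SMCs and fibroblasts did not pass the test for *Gja5* (log2 fold change -0.79, SE 0.48, adjusted p = 0.175), although the difference was called with doublets kept (-1.91, adjusted p = 9.94e-05) and by DESeq2 (-1.09, adjusted p = 0.0465). In the main setting only 19 UMIs in SMCs and 18 in fibroblasts, over both aortas, stood behind this contrast.

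The few *Gja5* UMIs outside the endothelium were set against those of other endothelial transcripts in the same cells. Per 1000 UMIs of the endothelial marker list there were 31.2 and 27.3 *Gja5* UMIs in endothelial cells, 22.2 and 30.5 in fibroblasts, 26.3 and 33.7 in myeloid cells, 10.1 and 6.02 in lymphocytes, 12.0 and 1.9 in mesothelial cells, and 9.45 and 8.48 in SMCs. The ratio in fibroblasts and myeloid cells was thus close to that of the endothelial cells themselves, while those in lymphocytes, mesothelial cells and SMCs were lower in both aortas. In mesothelial cells *Gja5* had 12 UMIs in aorta 1 and 1 UMI in aorta 2. The mesothelial excess over fibroblasts (log2 fold change 1.76, SE 0.57, edgeR adjusted p = 0.0155) rested on the first of these aortas. *Gja5* passed the filter through its endothelial counts and was not tested when only mesothelial cells and fibroblasts entered the fit. With doublets kept it was 0.40 (adjusted p = 0.522), and without aorta 1 the log2 fold change was -0.56 with an adjusted p of 0.836. Where an aorta was left out, each of the 2 types compared had 1 sum, which was assumed to vary like the sums of the other types.

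*Gja4* was at 192 CPM in endothelial cells of aorta 1 and at 329 CPM in those of aorta 2 (260.5 ± 96.7, SD, n = 2), a wider spread than that of *Gja5* in the same cells. Endothelial cells held 81.9% and 88.4% of its UMIs. SMCs came next at 6.57 and 7.43 CPM, and fibroblasts at 0.963 and 0.95 CPM. The endothelial and SMC values did not overlap, nor did those of SMCs and fibroblasts. Between SMCs and endothelial cells the edgeR log2 fold change was -5.00 (SE 0.19, adjusted p = 3.41e-16), that of endothelial cells over fibroblasts 7.88 (SE 0.28, adjusted p = 1.17e-16) and that of SMCs over fibroblasts 2.88 (SE 0.42, adjusted p = 3.4e-06). With coarser clustering the excess over fibroblasts was 1.03 for SMCs and 6.23 for endothelial cells on the log2 scale, with the listed genes allowed in the clustering 1.05 and 6.26, and with doublets kept 1.58 and 6.49, all called (adjusted p at most 0.00979).

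The ratio of *Gja4* to other endothelial transcripts was higher in SMCs than in endothelial cells. Per 1000 endothelial marker UMIs, SMCs held 99.7 and 97.6 *Gja4* UMIs, against 23.4 and 37.6 in endothelial cells and 20.0 and 22.9 in fibroblasts. The ranges of SMCs and endothelial cells did not overlap, and the order was opposite to that of *Gja5*.

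*Gja1*, which encodes the connexin with the widest tissue range, was at 236 and 221 CPM in mesothelial cells (228 ± 10.4, SD, n = 2), at 106 and 92.7 CPM in SMCs, at 44.3 and 47.2 CPM in fibroblasts and at 30.8 and 41.5 CPM in endothelial cells. In myeloid cells it was at 4.36 and 4.03 CPM and in lymphocytes at 2.55 and 3.22 CPM. No neighbours in this order overlapped between aortas, apart from the 36 erythroid cells, where the only 3 UMIs were in aorta 1. SMCs, which were 36.5% and 37.4% of the named cells, held 65.8% and 64.1% of all *Gja1* UMIs, against 14.9% and 12.2% for mesothelial cells. The edgeR log2 fold change was 2.09 for mesothelial cells over fibroblasts (SE 0.13, adjusted p = 3.63e-12), 1.18 for SMCs over fibroblasts (SE 0.12, adjusted p = 6.89e-09) and 1.69 for SMCs over endothelial cells (SE 0.14, adjusted p = 3.17e-10). Endothelial cells were 0.52 lower than fibroblasts on the log2 scale (log2 fold change -0.52, SE 0.15, adjusted p = 0.00703), short of the 2-fold limit (an absolute log2 fold change over 1) used for calls. In cells of 5000 to 25000 UMIs it passed that limit (-1.33, adjusted p = 3.31e-05), and after thinning it was 0.082 (adjusted p = 0.848).

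The endothelial value of *Gja1* depended on the lymphatic subset of 121 cells. Without it, *Gja1* in the remaining endothelial cells was at 9.94 and 6.58 CPM, the SMC excess over endothelial cells was 3.75 on the log2 scale in place of 1.69 (SE 0.18, adjusted p = 7.67e-15), and the endothelial deficit against fibroblasts became a call (log2 fold change -2.58, SE 0.20, adjusted p = 9.61e-11).

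*Gjc1* was at 83.2 and 86.0 CPM in SMCs (84.6 ± 1.96, SD, n = 2), at 51.9 and 59.0 CPM in endothelial cells and at 36.8 and 36.6 CPM in fibroblasts. These 3 types did not overlap with each other, and they stood above mesothelial cells, which had 5.02 and 1.01 CPM. SMCs held 73.4% of the *Gjc1* UMIs in each aorta. The edgeR log2 fold change was 1.25 for SMCs over fibroblasts (SE 0.13, adjusted p = 1.68e-08) and -3.58 for mesothelial cells over fibroblasts (SE 0.34, adjusted p = 1.12e-08). The mesothelial value rested on 9 and 1 UMIs, and the fold change was -5.39 without aorta 1, -3.11 without aorta 2 and -2.39 with doublets kept, called in each case. The SMC excess over endothelial cells, 0.83 (SE 0.14, adjusted p = 2.18e-05), and the endothelial excess over fibroblasts, 0.42 (SE 0.15, adjusted p = 0.0258), did not reach the 2-fold limit. By DESeq2 the SMC excess over fibroblasts was 0.90 for *Gja1* and 0.98 for *Gjc1*, just under the 2-fold limit. *Gja1* and *Gjc1* thus differed in opposite directions between mesothelial cells and fibroblasts, and in the same direction between SMCs and fibroblasts.

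*Panx1* had the lowest counts of the 5 genes. It was at 19.3 and 25.1 CPM in lymphocytes (22.2 ± 4.11, SD, n = 2), 9.2 and 11.9 CPM in fibroblasts, 7.8 and 10.1 CPM in mesothelial cells, 7.42 and 6.72 CPM in myeloid cells, 3.77 and 3.17 CPM in endothelial cells and 0.679 and 0.808 CPM in SMCs. Fibroblasts and mesothelial cells overlapped, and the other neighbours did not. SMCs, with 12 and 10 UMIs, were 3.73 lower than fibroblasts on the log2 scale (log2 fold change -3.73, SE 0.29, edgeR adjusted p = 1.73e-10) and lower than endothelial cells (log2 fold change -2.0, SE 0.45, adjusted p = 0.000669). Endothelial cells were lower than fibroblasts (log2 fold change -1.73, SE 0.32, adjusted p = 9.63e-05), a call lost with cells thinned to 1000 UMIs (-1.43, adjusted p = 0.146). The difference between SMCs and endothelial cells rested on few UMIs and had an adjusted p of 0.0591 without aorta 1, with the spread taken from the other types, of 0.0526 in cells of 5000 to 25000 UMIs and of 0.203 after thinning.

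In the 36 erythroid cells the members had 7 UMIs in all, 3 of *Gja1*, 3 of *Gja5* and 1 of *Gja4*, and all were in aorta 1. *Gjb2* had 2 UMIs in aorta 1, both in myeloid cells, and 1 in aorta 2, in an SMC. The gene did not pass the filter on low counts, and without that filter it was not called among cell types (edgeR adjusted p = 0.995). *Gjb2* was not detectable above these single molecules at this depth.

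In the contrasts between 2 types, a call needed both an adjusted p under 0.05 and a change beyond the 2-fold limit. Of the 5 members tested, 4 were called between SMCs and endothelial cells, where 29.7% of all genes were called, and 4 between SMCs and fibroblasts, where 26.7% were. Between endothelial cells and fibroblasts 3 were called, beside 26.1% of all genes, and between mesothelial cells and fibroblasts 3, beside 24.6%. The last count falls to 2, *Gja1* and *Gjc1*, when only the types compared enter the fit, since *Gja5* then fails the filter. Whether the members differ as a group from other genes was not tested.

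**Figure D2:**
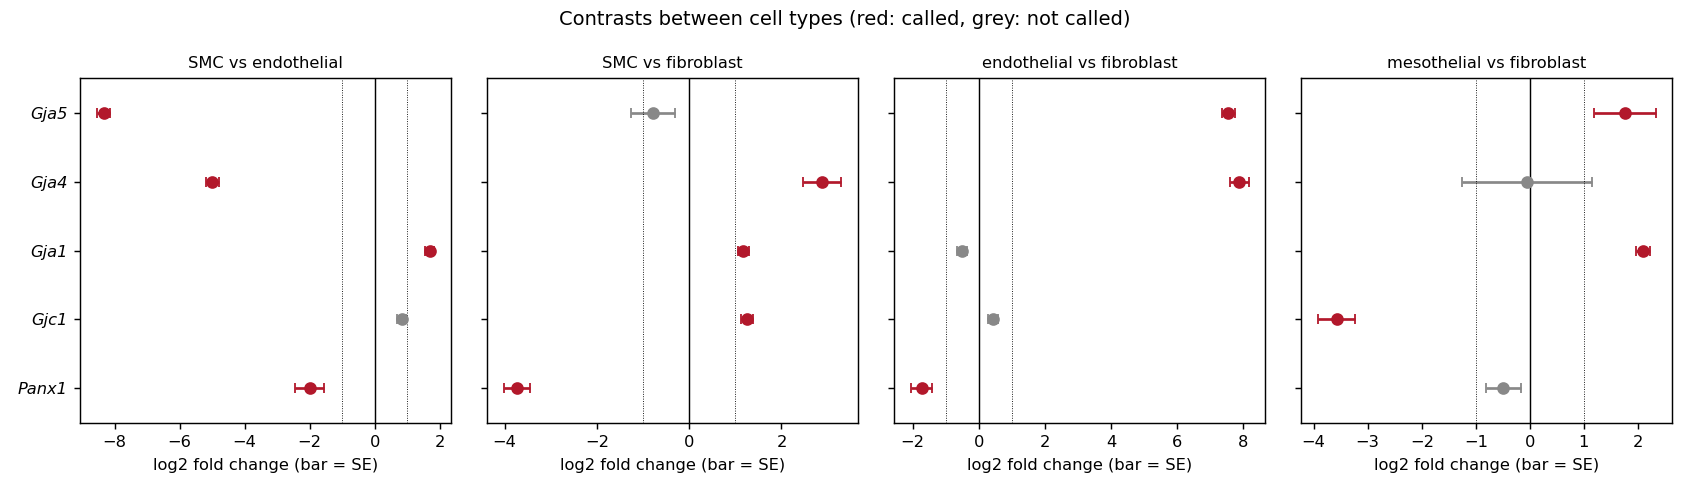
The log2 fold changes of 5 members in the 4 contrasts between cell types (points, with SE as bars; red, called; grey, not called; dotted lines at the 2-fold limits; each panel has its own scale). *Gja5* and *Gja4* lie at -8.34 and -5.00 in the first panel and at 7.55 and 7.88 in the third, and *Gja1* and *Gjc1* lie on opposite sides of 0 in the fourth.

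The shares of cells with at least 1 UMI were compared at equal depth. Cells were thinned to 1000 UMIs each, since SMCs had a median of 7652 and 7453 UMIs, endothelial cells of 3678 and 3026 and lymphocytes of 3944 and 3804. After thinning, 21.9% of endothelial cells of aorta 1 (exact 95% interval 19.1% to 25.002%) and 19.2% of those of aorta 2 (16.4% to 22.3%) held a *Gja5* UMI, against 0 of 588 and 0 of 338 lymphocytes, which allows up to 0.51% and 0.888%. Without thinning the endothelial shares were 49.4% and 44.8%, and the lymphocyte shares 0.51% and 0.296%. For *Gja4* the thinned endothelial shares were 18.2% and 22.4%. SMCs had a *Gja4* UMI in 0.76% and 0.815% of thinned cells, with intervals of 0.451% to 1.2% and 0.446% to 1.36%, and lymphocytes in 0 of 588 and in 0.296%. After thinning the SMC and lymphocyte intervals overlapped, with at most 1 positive lymphocyte per aorta. Without thinning 3.33% and 3.9% of SMCs held a *Gja4* UMI, against 0.51% and 0.592% of the shallower lymphocytes. These intervals cover counting error only.

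For *Gja1* the thinned shares were 20.1% and 12.3% in mesothelial cells, 7.98% and 6.46% in SMCs, 3.64% and 3.93% in fibroblasts, 3.44% and 3.57% in endothelial cells, and 0.17% and 0.296% in lymphocytes. Without thinning, 64.5% and 58.7% of mesothelial cells and 35.7% and 33.8% of SMCs held a *Gja1* UMI. *Gjc1* was found in 7.68% and 7.22% of thinned SMCs, and in 41.0% and 40.1% of unthinned ones. *Panx1* was found in 0.85% and 2.66% of thinned lymphocytes, in 1.83% and 0.645% of mesothelial cells, in 0.958% and 0% of myeloid cells, in 0.729% and 0.959% of fibroblasts and in 0.0844% and 0.0582% of SMCs, each share resting on at most 11 cells, so that no order was read from them.

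**Figure D3:**
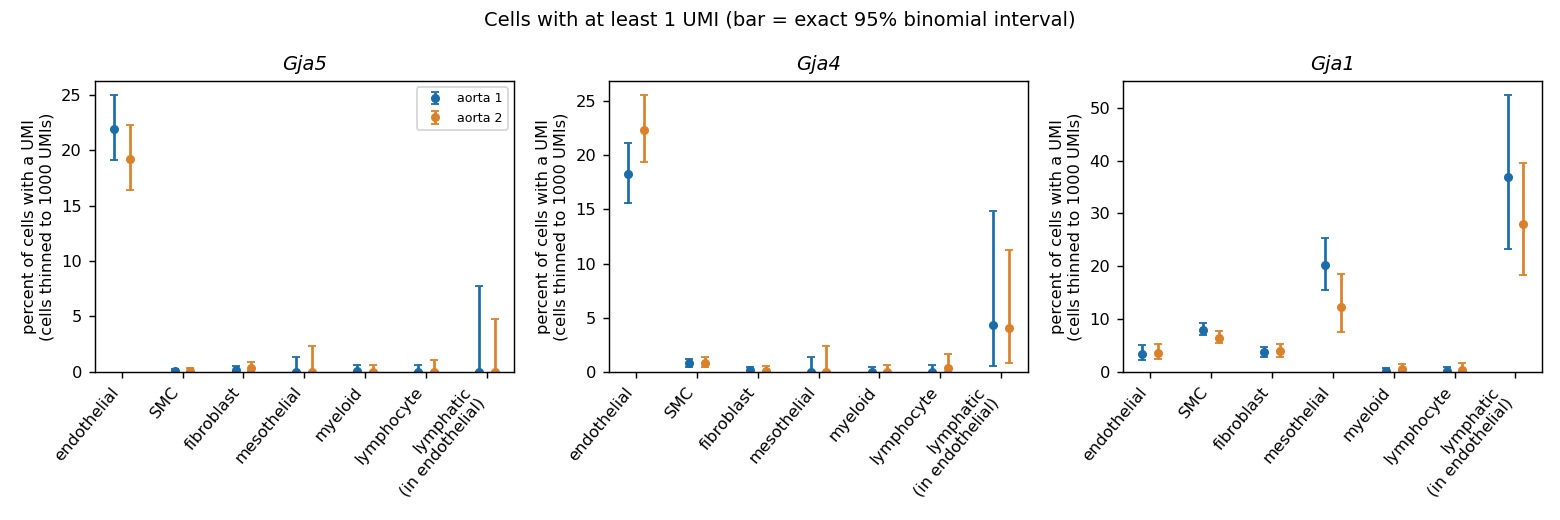
Percent of cells with at least 1 UMI of *Gja5*, *Gja4* or *Gja1* after thinning every cell to 1000 UMIs, by cell type and aorta (points, with exact 95% binomial intervals); the lymphatic subset is part of the endothelial cells. Endothelial cells stand near 20% for *Gja5* and *Gja4*, and the lymphatic subset at 37.0% and 28.0% for *Gja1*.

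Endothelial cells were divided further to ask whether the members differed among their subsets. There were 6 subsets: the *Emcn*-list subset (222 cells) and the *Sema3g*-list subset (162 cells), each the subset that scored highest for that marker list, the lymphatic subset (121 cells, with all 6 lymphatic markers including *Prox1* and *Lyve1*), and the subsets endothelial 0 (643 cells, led by *Klk8* and *Isl1*), endothelial 1 (277 cells, led by *Adra2a* and *Coch*) and endothelial 5 (87 cells, led by *Fabp4*, *Cd36*, *Tcf15* and *Gpihbp1*), which were left with numbers. Endothelial 1 scored nearly as high for the *Sema3g* list as the subset named from it (0.38 against 0.48). The *Emcn*-list subset had the fibroblast marker *Dcn* among its leading genes. Its fibroblast markers, at 2019 and 1760 CPM, were the highest of the 6 subsets. *Gja5* and *Gja4* were carried by 4 of the 6 subsets, and *Gja1* mainly by the other 2. All 4 members that passed the filter, *Gja1*, *Gja4*, *Gja5* and *Gjc1*, differed among the subsets, with edgeR adjusted p of 6e-17, 2.11e-09, 1.32e-14 and 0.00778, where 32.3% of 7813 genes did. By DESeq2 *Gjc1* was not called (adjusted p = 0.122).

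*Gja5* was at 357 and 340.0 CPM in endothelial 0, at 325 and 279 CPM in endothelial 1, at 198 and 195 CPM in the *Sema3g*-list subset and at 163 and 143 CPM in the *Emcn*-list subset. It had no UMI in the lymphatic subset or in endothelial 5, in either aorta. Pooled over both aortas, *Gja5* was at least 36.4-fold higher in the other endothelial cells than in the lymphatic subset, and in the 4 positive subsets together at least 22.3-fold higher than in endothelial 5, when 3 UMIs over both aortas were taken as the floor. The 4 positive subsets did not overlap with their neighbours in this order.

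*Gja4* was at 308 and 563 CPM in endothelial 1, at 194 and 365 CPM in the *Emcn*-list subset, at 199 and 324 CPM in endothelial 0 and at 134 and 138 CPM in the *Sema3g*-list subset. It was at 31.0 and 40.6 CPM in the lymphatic subset and at 21.2 and 0 CPM in endothelial 5. The ranges of the first 3 subsets overlapped, and all 3 were higher in aorta 2 than in aorta 1, whereas the *Sema3g*-list subset was nearly equal in both. The higher level of *Gja4* in endothelial cells of aorta 2 was therefore seen in 3 of the 4 subsets that carried the gene.

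Between the *Emcn*-list and *Sema3g*-list subsets 2 of 4 members were called, beside 10.3% of all genes. *Gja4* was higher in the *Emcn*-list subset (log2 fold change 1.05, SE 0.32, edgeR adjusted p = 0.0205). With the aorta as a block the difference was 0.94 (adjusted p = 0.000869), just under the 2-fold limit, and without aorta 1 or aorta 2 it was 1.47 (adjusted p = 0.0526) or 0.61 (adjusted p = 0.41), with the spread taken from the other subsets. DESeq2 gave 1.10 (adjusted p = 0.0713). *Gja1* was lower in the *Emcn*-list subset (log2 fold change -2.97, SE 0.96, adjusted p = 0.0334), but only 2 UMIs stood against 10, all of them in aorta 1. It passed the filter through the lymphatic subset and endothelial 5, and its call in this contrast is not a result about the gene. *Gja5* (log2 fold change -0.28, SE 0.20, adjusted p = 0.464) and *Gjc1* (-0.66, SE 0.40, adjusted p = 0.345) were not called.

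*Gja1* was at 421 and 365 CPM in the lymphatic subset (393 ± 39.7, SD, n = 2), above the level of every cell type, and at 92.1 and 123 CPM in endothelial 5. It was at most 24.4 CPM in the other 4 subsets. Of the 203 *Gja1* UMIs of endothelial cells, 158 were in the lymphatic subset and 25 in endothelial 5, together 90.1%. At least 1 *Gja1* UMI was found in 28 of 46 lymphatic cells of aorta 1 and in 41 of 75 of aorta 2. The SMC marker list, whose cells also carry *Gja1*, was at 2825 and 978 CPM in the lymphatic subset, against 45608 and 44026 CPM in SMCs. The mesothelial list, of the cell type with the most *Gja1*, was at 31.0 and 0 CPM in the lymphatic subset. The 8 fibroblast markers, of which *Lum* was at 0, summed there to 440 and 702 CPM. The part of transcripts from other cell types in the *Gja1* level of the lymphatic subset was not tested.

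Against the mean of the other endothelial subsets, *Gja1* was higher in the lymphatic subset (log2 fold change 5.47, SE 0.27, edgeR adjusted p = 1.52e-17) and *Gja4* lower (log2 fold change -2.08, SE 0.60, adjusted p = 0.00979). These were 2 of the 4 members tested, beside 15.9% of all genes. *Gjc1* was at 62.0 and 85.2 CPM in the lymphatic subset and was not called (log2 fold change 0.52, SE 0.31, adjusted p = 0.272). For *Gja5* this contrast gave no usable value, since endothelial 5 was also at 0. When the other endothelial cells were summed instead, the log2 fold change of *Gja4* was -3.18 (SE 0.38, edgeR adjusted p = 4.73e-07), and *Gja5* was called, with an adjusted p of 4.99e-11. At a higher subclustering resolution the *Gja4* call was lost (-1.001, SE 49.9, adjusted p = 1).

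*Gjc1* was the most even of the 4 genes among endothelial subsets. It was at 70.2 and 74.6 CPM in endothelial 0, at 62.0 and 85.2 CPM in the lymphatic subset, at 77.9 and 30.7 CPM in endothelial 5, at 44.0 and 51.6 CPM in the *Sema3g*-list subset, at 43.5 and 40.4 CPM in endothelial 1 and at 22.2 and 37.0 CPM in the *Emcn*-list subset. Endothelial 5 spanned most of this range with 11 and 3 UMIs. *Panx1* had 20 endothelial UMIs in all, 11 of them in endothelial 0, and was not tested among subsets.

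*Gja4* and *Gja5* were found in the same subsets and often in the same cells. In endothelial cells other than the lymphatic subset, 27.0% and 30.8% of cells held UMIs of both genes without thinning, and 69.1% and 71.5% held at least 1 of them. After thinning, 4.34% and 5.97% held both, where the product of the separate shares was 4.45% and 5.25%. At equal depth the genes were thus detected together about as often as the product of their shares gives. In the lymphatic subset no cell could hold both, since *Gja5* had no UMI there.

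**Figure D4:**
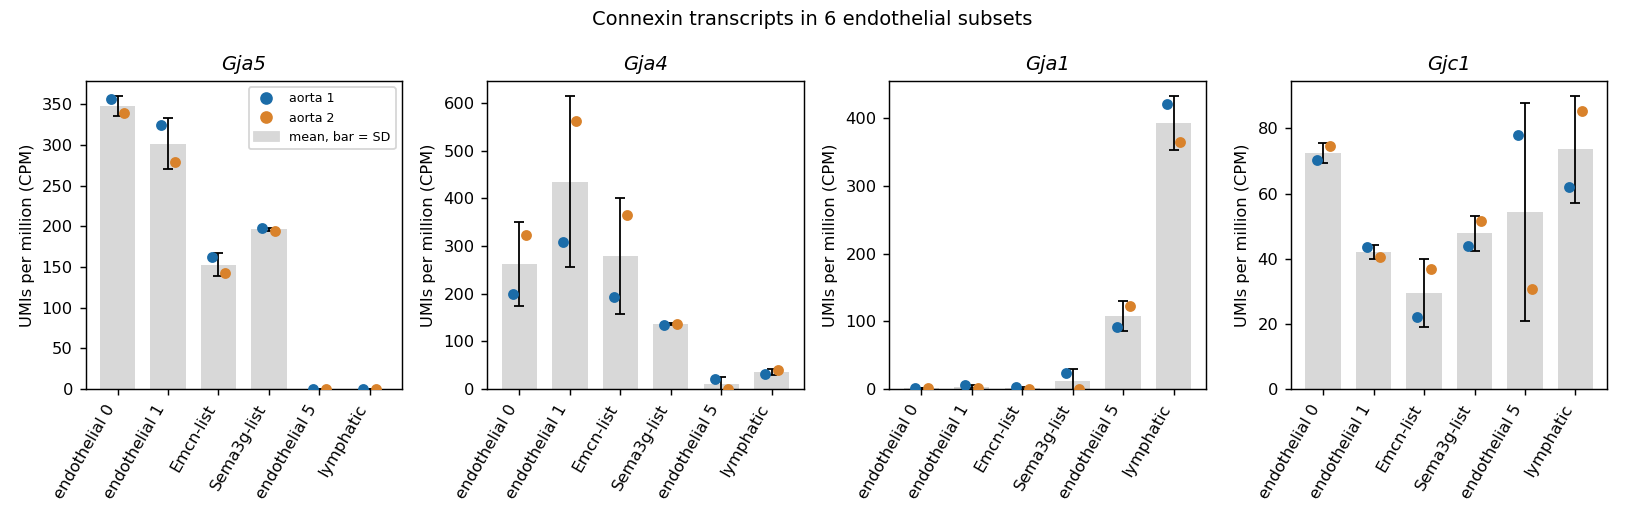
Levels of *Gja5*, *Gja4*, *Gja1* and *Gjc1* in 6 endothelial subsets, in UMIs per 1000000 of the summed UMIs of each subset (points: 2 aortas; bars: mean with SD). *Gja5* is at 0 in endothelial 5 and in the lymphatic subset, where *Gja1* reaches 108 and 393 CPM.

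SMCs were divided into 8 subclusters, kept as numbers. *Gja4* was concentrated in SMC 6 and SMC 5, *Gja1* was highest in SMC 4, and *Gjc1* was highest in SMC 6 and lowest in SMC 3. All 3 members that passed the filter differed among the subclusters, with edgeR adjusted p of 5.16e-12 for *Gja4*, 3e-05 for *Gja1* and 0.00514 for *Gjc1*, where 54.8% of 9333 genes did.

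*Gja4* was at 70.9 and 80.8 CPM in SMC 6, a subcluster of 123 cells led by *Pln*, *Sncg* and *Notch3*. *Notch3* was on the list of small-vessel mural markers used. SMC 6 scored highest of the subclusters for that list (0.79, next 0.34 in SMC 4 and 0.31 in SMC 2). It had 4 of the list's markers, as had SMC 0, SMC 1 and SMC 5, which scored -0.14, -0.07 and 0.06. Whether SMC 6 holds small-vessel mural cells was not tested. *Gja4* was at 36.8 and 35.4 CPM in SMC 5, a subcluster of 152 cells led by *Dcn*, *Serpinf1* and *Lum*, which are fibroblast markers. SMC 7, with 121 shallow cells, was at 15.5 and 36.5 CPM from 2 and 4 UMIs, and the other 5 subclusters were at 0 to 6.51 CPM. SMC 5 and SMC 6 were 6.73% of SMCs and held 110 of the 208 SMC *Gja4* UMIs, or 52.9%. In SMC 6 the endothelial marker list was at 114 CPM in each aorta, with *Kdr* and *Cldn5* at 0, and there were 623 and 708 *Gja4* UMIs per 1000 endothelial marker UMIs, against 23.4 and 37.6 in endothelial cells. *Gja5* had 1 UMI in SMC 6 and none in SMC 5. In SMC 5 the fibroblast marker list was at 6579 and 7651 CPM, against 37276 and 38165 CPM in fibroblasts, where *Gja4* was at 0.963 and 0.95 CPM.

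*Gja1* was at 179 and 174 CPM in SMC 4, a subcluster of 181 cells led by *Nrn1* and *Lum*, and no other subcluster reached this level in either aorta. In the 3 largest subclusters, SMC 0, SMC 1 and SMC 2, it was between 85.0 and 121 CPM. It was lower in SMC 3, whose 783 cells had a median of 1829 UMIs, at 40.8 and 45.0 CPM, in SMC 5 at 46.0 and 20.2 CPM, and in SMC 6 at 78.4 and 33.3 CPM. SMC 4 had no *Gja4* UMI. Its fibroblast marker list was at 2428 and 2653 CPM and its mesothelial list at 14.8 and 6.16 CPM. The part of these markers in the *Gja1* level was not tested.

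*Gjc1* was at 114 and 126 CPM in SMC 6, the highest mean of the subclusters, and between 81.1 and 94.1 CPM in SMC 0, SMC 1 and SMC 2. The shallow SMC 3 was lowest, at 45.4 and 38.4 CPM, as it was below the large subclusters for *Gja1*. SMC 7, with the same median depth of 1829 UMIs, was at 147 and 73.0 CPM for *Gja1* and at 61.9 and 109.5 CPM for *Gjc1*, from 8 to 19 UMIs per aorta. The part of depth in the levels of SMC 3 was not tested. Without the shallow clusters the calls of the members among all cell types, between SMCs and endothelial cells and between SMCs and fibroblasts were unchanged.

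**Figure D5:**
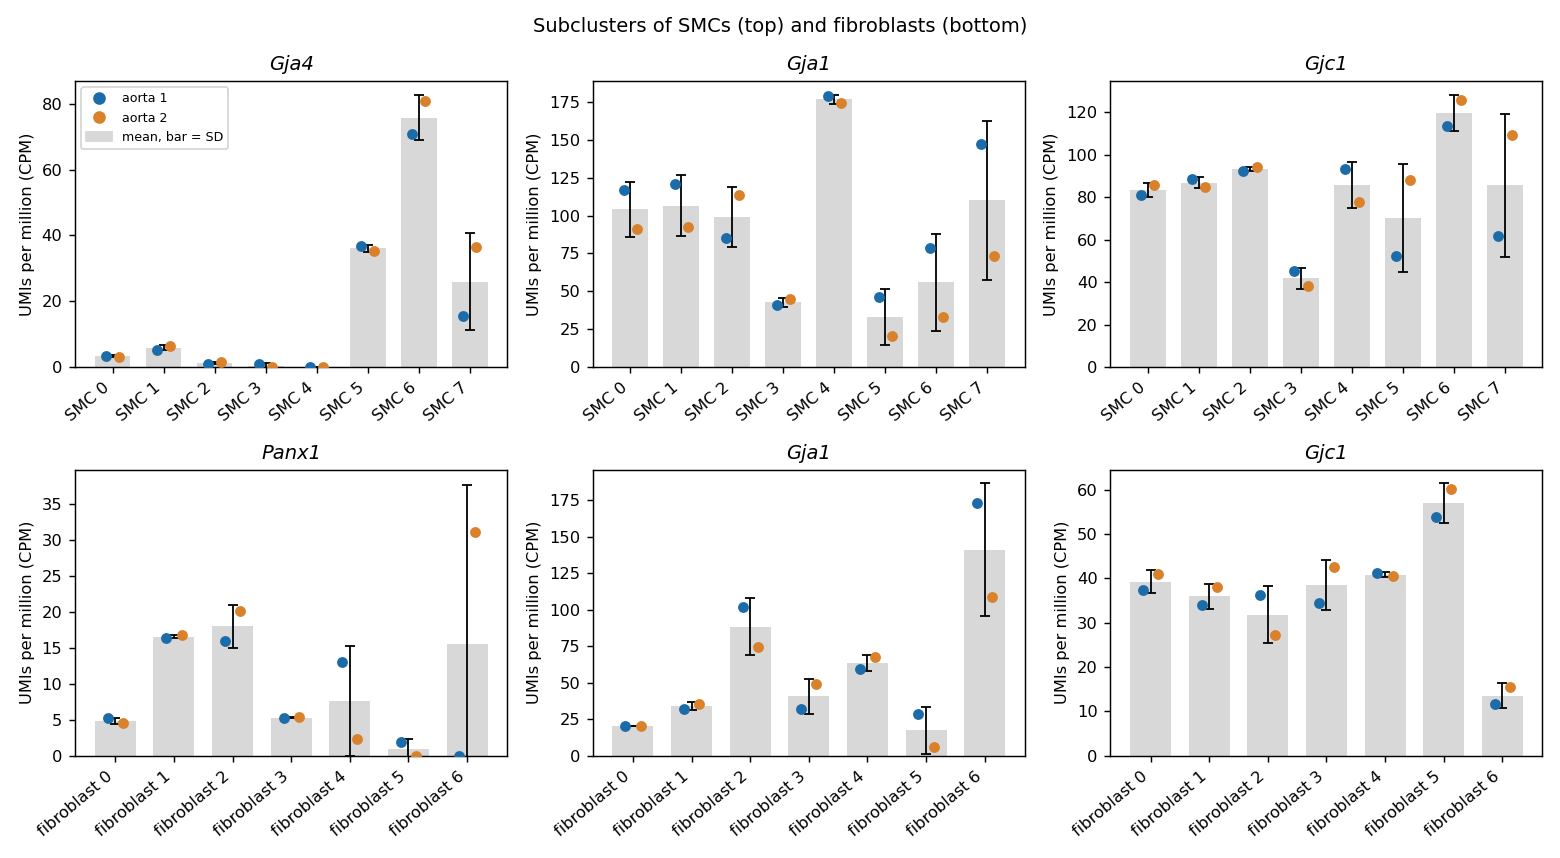
Levels of *Gja4*, *Gja1* and *Gjc1* in 8 SMC subclusters (top) and of *Panx1*, *Gja1* and *Gjc1* in 7 fibroblast subclusters (bottom), in UMIs per 1000000 of the summed UMIs of each subcluster (points: 2 aortas; bars: mean with SD). *Gja4* stands at 75.9 CPM in SMC 6 and *Gja1* at 177 CPM in SMC 4 and 141 CPM in fibroblast 6.

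Fibroblasts were divided into 7 subclusters. *Gja1* and *Gjc1* had opposite extremes: fibroblast 6, the smallest subcluster with 84 cells led by *Fn1* and *Sfrp4*, had the highest *Gja1* and the lowest *Gjc1*. All 3 members that passed the filter differed among the subclusters, with edgeR adjusted p of 5.43e-09 for *Gja1*, 0.00389 for *Panx1* and 0.0415 for *Gjc1*, where 36.4% of 10585 genes did. By DESeq2 *Gjc1* was not called (adjusted p = 0.119).

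*Gja1* was at 173 and 109 CPM in fibroblast 6, at 102 and 74.6 CPM in fibroblast 2 (416 cells, led by *Pla1a* and *Dpp4*) and at 59.6 and 67.4 CPM in fibroblast 4. It was at 20.1 and 20.5 CPM in fibroblast 0, the largest subcluster with 800 cells. In fibroblast 6 the 7 mesothelial markers summed to 3.85 and 0 CPM, and 6 of them were at 0. In fibroblast 2 it was at 62.8 and 40.9 CPM, against 7544 and 7369 CPM in mesothelial cells.

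*Gjc1* was at 11.6 and 15.6 CPM in fibroblast 6, from 3 UMIs in each aorta, and at 53.8 and 60.1 CPM in fibroblast 5. In the other 5 subclusters it was between 27.2 and 42.6 CPM. *Panx1* was at 16.4 and 16.7 CPM in fibroblast 1 and at 15.9 and 20.1 CPM in fibroblast 2, against 5.17 and 4.56 CPM in fibroblast 0 and 5.25 and 5.32 CPM in fibroblast 3. In fibroblast 6 all 6 of its UMIs were in aorta 2.

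Of the other connexins, *Gjb5*, which encodes a connexin known from stratified epithelia, had 264 UMIs in all cells. *Gjb5* was at 60.2 and 74.0 CPM in mesothelial cells and at 3.74 and 6.97 CPM in fibroblasts (log2 fold change 3.44, SE 0.29, edgeR adjusted p = 5.26e-09), with no UMI in endothelial cells. Within fibroblasts it was highest in fibroblast 6, at 46.2 and 62.3 CPM, the subcluster with the highest *Gja1*. SMCs and endothelial cells were both lower than fibroblasts for *Gjb5* (log2 fold changes -5.78 and -7.66, the endothelial one from 0 UMIs and no bound). All 10 UMIs of *Gja3* were in SMCs.

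Proteins that hold, anchor or remove gap junctions were described by a list of 13 partner genes. Between SMCs and endothelial cells 7 of the 13 were called (background 29.7%), 4 higher in SMCs (*Cdh2*, *Dbn1*, *Src* and *Prkca*) and 3 lower (*Cdh5*, *Cav1* and *Tjp1*). The largest differences were those of *Cdh5*, the cadherin of endothelial junctions (log2 fold change -9.02), *Cdh2*, the cadherin of mesenchymal cells (2.86), and *Dbn1*, which encodes drebrin (2.20). The median log2 fold change of the list was -0.14, and that of all genes 0.01. Between endothelial cells and fibroblasts 8 of 13 were called (26.1%), 4 higher in endothelial cells, with *Cdh5* at 7.89, *Cav1*, the caveolae protein caveolin 1, at 3.75, *Tjp1*, the scaffold protein ZO-1, at 1.24, and *Ctnnb1* at 1.07. The 4 lower genes were *Dbn1*, *Cdh2*, *Prkca* and *Src*. Between SMCs and fibroblasts 4 were called (26.7%), *Cav1* higher in SMCs by 2.33 on the log2 scale and *Dbn1* (-1.84), *Cdh5* (-1.14) and *Prkca* (-1.05) lower. *Cdh5* was far below its endothelial level in both of these types. Whether it passed the filter on low counts only through the endothelial counts was not examined, so its call here is uncertain. Between mesothelial cells and fibroblasts 4 were called (24.6%), *Cav1* higher (1.94) and *Dbn1* (-2.20), *Smurf2* (-1.51) and *Prkca* (-1.45) lower. The medians of the list in these 3 contrasts were 0.18, 0.0018 and -0.28, against -0.05, -0.08 and -0.15 for all genes.

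A list of 15 regulators held flow-responsive, Notch, SoxF and T-box genes that are known to act on vascular connexins or on arterial identity. Between SMCs and endothelial cells 12 of 15 were called (background 29.7%), 11 of them lower in SMCs, led by *Sox18* (log2 fold change -8.25), *Sox17* (-8.06) and *Sox7* (-7.02), the SoxF transcription factors of endothelium, and the Notch ligand *Dll4* (-6.55). *Tbx2* alone was higher in SMCs (4.41). The median of the list was -2.95, and that of all genes 0.01. Between endothelial cells and fibroblasts 11 were called (26.1%) and 10 were higher in endothelial cells, led by *Sox17* (8.26), *Dll4* (7.69), *Sox18* (7.31) and *Notch4* (5.20), with *Tbx2* lower (-3.84) and a median of 2.43, against -0.05 for all genes. Between SMCs and fibroblasts 6 were called (26.7%), *Hey2* (1.87) and *Tbx18* (1.23) higher in SMCs and *Sox7* (-3.18), *Klf4* (-2.88), *Klf2* (-1.45) and *Jag1* (-1.01) lower, and between mesothelial cells and fibroblasts 5 (24.6%), *Tbx18* higher (2.70) and *Foxc2* (-5.32), *Sox7* (-3.05), *Jag1* (-3.02) and *Hey2* (-2.36) lower. The medians of the list in these contrasts were 0.20 and -1.38, against -0.08 and -0.15 for all genes. *Sox7* was higher in endothelial cells than in SMCs and than in fibroblasts (3.84). Whether it passed the filter only through the endothelial counts was not examined, so its calls in these contrasts are uncertain.

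Among endothelial subsets the regulators differed from each other in direction. Of the 14 tested, 7 were called between the *Emcn*-list and *Sema3g*-list subsets, beside 10.3% of all genes, and 6 of them were lower in the *Emcn*-list subset: *Sox17* (log2 fold change -1.95), *Klf4* (-1.55), *Jag1* (-1.49), *Klf2* (-1.35), *Notch4* (-1.27) and *Tbx3*. *Tbx18* was higher (3.72). In the lymphatic subset 6 were called, beside 15.9% of all genes, with *Sox17* (-6.08), *Hey2* (-4.83), *Notch4* (-2.65) and *Jag1* (-1.59) lower than in the other subsets, and *Hey1* (2.08) and *Dll4* (1.11) higher, while *Sox18* (-0.02), *Sox7* (-0.09) and *Notch1* (0.09) were not called. Of the 7 partners tested, 1 was called in the lymphatic subset, where *Cdh5* was lower (-1.05). The list medians were -1.31 and -0.21 for the regulators, against 0 and 0.02 for all genes, and -0.23 for the partners in the lymphatic subset.

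The list of 16 genes that receive or degrade extracellular ATP and adenosine is given beside *Panx1*, since pannexin channels release ATP. Between SMCs and endothelial cells 10 of the 15 tested were called (background 29.7%), 6 higher in SMCs and 4 lower (*P2ry1*, *Nt5e*, *P2rx7* and *P2ry2*). *P2rx1*, the ATP-gated channel of smooth muscle, was higher in SMCs by 3.48 and *P2rx5* by 5.81, while *P2ry1* (-6.24) and *Nt5e* (-5.70), which encodes the enzyme that makes adenosine from AMP, were lower. Between SMCs and fibroblasts 10 were called (26.7%), 4 higher (*P2rx1*, *Entpd1*, *P2rx5* and *Adora1*) and 6 lower, with *P2ry1* at -5.45, *P2rx1* at 5.36, *Entpd2* at -4.88 and *Entpd1*, an ectonucleotidase, at 4.06. Between endothelial cells and fibroblasts 9 were called (26.1%), 5 higher (*Nt5e*, *Entpd1*, *P2rx7*, *P2rx1* and *P2ry2*) and 4 lower (*Entpd2*, *Adora2b*, *P2ry14* and *Adora2a*), and between mesothelial cells and fibroblasts 8 (24.6%), with only *Adora1* higher (4.23). The list medians in these 4 contrasts were -0.51, -0.17, 0.56 and -3.31, against 0.01, -0.08, -0.05 and -0.15 for all genes. Among endothelial subsets 5 genes of the list were tested: *Nt5e* was higher (1.14) and *P2ry2* lower (-2.30) in the *Emcn*-list than in the *Sema3g*-list subset (10.3% of all genes called), and *Nt5e*, *Entpd1* (-3.26) and *P2rx7* (-2.42) were lower in the lymphatic subset (15.9%).

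In the tests for any difference among groups, the shares called were 11 of 13 partners, 15 of 15 regulators and 15 of 15 ATP genes among cell types (background 92.9%), 3 of 7, 12 of 14 and 3 of 5 among endothelial subsets (32.3%), 7 of 12, 10 of 10 and 5 of 6 among SMC subclusters (54.8%), and 6 of 11, 7 of 8 and 7 of 11 among fibroblast subclusters (36.4%). Among endothelial subsets these were the partners *Tjp1*, *Cdh5* and *Nedd4* and the ATP genes *P2ry2*, *Nt5e* and *Entpd1*. Among SMC subclusters the ATP genes were *Entpd1*, *Entpd2*, *P2rx1*, *P2rx4* and *P2ry14*. The connexin *Gjb5* was called among fibroblast subclusters.

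The genes whose levels most resembled those of each member were taken from 13172 genes over the 14 sums of aorta and cell type, by the Pearson correlation of log2(CPM + 10). The sums share libraries and cell types, so the correlations are descriptions only. For *Gja5* they were *Plek2*, *Myct1* and *Egfl7* (r = 0.995, 0.995 and 0.994), and *Egfl7* was one of the markers that named the endothelial cells. For *Gja4* they were *Serpina1d*, *Serpina1e* and *Nkx2-3* (0.987, 0.987 and 0.986), of which the first 2 belong to a family of near-identical genes whose counts are uncertain and *Nkx2-3* is on the *Emcn* list. The correlation of *Gja4* with *Gja5* was 0.963. For *Gja1* they were *Cetn4*, *Ctdspl* and *Tmem231* (0.975, 0.973 and 0.967), for *Gjc1* *Sntg2*, *Snrpn* and *Qsox1* (0.982, 0.982 and 0.98), and for *Panx1* *Fam102a*, *Ralgps2* and *Gm42047* (0.958, 0.925 and 0.921). The correlation of *Gja1* with *Gjc1* was 0.455.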

How the data were processed

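Single-cell RNA of 2 aortas was measured. The authors deposited counts, whole numbers of UMIs per gene and barcode, made with Cell Ranger (4.0.0 per the file headers) on mm10; the submitters' processing notes also name Seurat 4.0. The deposited counts summed to 47009780 and 30919996. Kept cells had at least 200 genes, 1000 to 25000 UMIs and under 10% mitochondrial UMIs, and scanpy 1.11.5 called 201 and 89 doublets, which were removed. Cells were clustered (2000 variable genes, 30 components, 15 neighbours, Leiden resolution 1.0) without the members and listed genes. A cluster was named where at least 3 markers of a list were each found in 25% of its cells, no other list led it and its depth was not low; endothelial subsets needed 3 markers in 10%, a rule changed after marker values were seen. The 80 cells left unnamed went into no comparison.

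UMIs were summed per aorta and type and tested with edgeR 4.0.16 (quasi-likelihood, R 4.3.3) across all genes passing its filter, with p adjusted by Benjamini-Hochberg. With 2 animals, p-values set the differences between types against the spread between these 2 aortas within types, with 1 estimate shared by all types. Cell types of 1 aorta come from 1 animal and are paired by it; deviations of types of the same aorta correlated weakly (median r 0.0568, range 0.000363 to 0.213). Members, lists and tests were chosen with earlier results of these data known. All 6 members were named, other connexins from 10 UMIs (some are not reported here, nor is 1 partner gene, which was left out of the counts), up to 4 called genes of each other list and every gene of a count of 5 or fewer, and the 3 genes most like each member among those with at least 100 UMIs. Intervals are exact binomial (95%), and a count of 0 allows up to 3. DESeq2 1.42.0 and other filters, clusterings and depths were tried.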

Additional observations from a re-analysis of the deposited data

How the results depend on the processing

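Of 300 fold changes of members under alternatives, 272 gave the same sign and the same call, 15 lost the call, 6 gained it and 7 turned sign. The sign changes were *Gja1* between endothelial cells and fibroblasts with cells thinned to 1000 UMIs (0.082), and, between mesothelial cells and fibroblasts, *Gja4* by DESeq2 (0.000471), in cells of 5000 to 25000 UMIs (0.13) and without aorta 1 (0.82, and -0.99 without aorta 2), *Gja5* after thinning (-3.69) and without aorta 1 (-0.56, and 2.38 without aorta 2), and *Panx1* after thinning (0.61), none of the changed signs being past the threshold. In that contrast the genes called fell from 3410 to 2051 on thinning, which leaves fewer UMIs. Between the *Emcn*-list and *Sema3g*-list subsets the members called were 2, but 0 by DESeq2, 1 with doublets kept, 1 with the replicate block, and 0 to 1 without either aorta, and the genes called ranged from 373 to 652 without either aorta, against 801. In the lymphatic contrast 1 member in place of 2 was called at a higher subclustering resolution, where *Gja4* was lost (-1.001, SE 49.9), and the cause was not tested. By DESeq2 *Gjc1* lost its call among endothelial subsets and among fibroblast subclusters (adjusted p = 0.122 and 0.119). The replicate block, which pairs types of the same aorta, changed no other call of a member. Leaving out an aorta of the 2 types compared used the spread of the other types, and it was not run for the tests among all groups or the lymphatic contrast, where all groups would keep 1 sum and no residual degrees of freedom. *Panx1*, *Gja4* outside endothelium and SMCs, and all values of *Gjb2* are limited by depth. The alternatives without the shallow SMC clusters, without the lymphatic subset and with the other endothelial cells summed were chosen after seeing the data.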
